A study of Homo sapiens with 8 samples.

Results

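The fibroblast growth factor (FGF) receptors FGFR1, FGFR2, FGFR3 and FGFR4, the ligands FGF19 and FGF2, and the FGF-binding protein FGFBP1 were examined in ALK-positive lung cancer cells before and after the evolution of resistance to ALK tyrosine kinase inhibitors. These 7 of 43869 genes with values were found by their Ensembl identifiers in GENCODE, and the 54 of 126470 H3K27ac peaks within 20 kb of them were taken from the same table. They were selected with RNA values of these cells already known, so their RNA changes are given as a description. RNA-seq of bulk cells and ChIP-seq for H3K27ac gave values for 4 lines, with a single library of each kind for each line. The naive line is H3122, a lung cancer line that grows on the EML4-ALK fusion kinase. Its derivatives erCriz0, erAlec0 and erLor0 evolved under progressively raised inhibitor and were kept in crizotinib at 0.5 µM, alectinib at 2 µM or lorlatinib at 2 µM. Each derivative is 1 line obtained by gradual exposure, and all of them descend from H3122. RNA was isolated after 48 h without inhibitor, and the ChIP labels name 0.1% DMSO for every sample. Of the 8 samples of the series, a second crizotinib line, a second lorlatinib line, a sample with short lorlatinib exposure and pooled input DNA were not analysed here.

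FGF receptors are receptor tyrosine kinases at the cell surface. Most FGF ligands are held near the cell by heparan sulfate chains, which also help them to join receptors into active pairs, and receptor activation feeds the RAS-ERK cascade through the adaptor FRS2. FGF19 is unusual in acting as a hormone: it is released by the ileum in response to bile acids and signals to the liver through FGFR4 with the coreceptor beta-Klotho, encoded by KLB. FGF signalling is a known bypass route around inhibited receptor kinases in lung cancer. H3K27ac, acetylation of lysine 27 of histone H3, marks active promoters and enhancers.

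All values are rlog values, which are log2 of the normalized read count drawn toward the mean of the gene or peak over the libraries where reads are few. The change in a resistant line was the rlog there less the rlog in naive cells, a change of at least 1 was counted as up and one of at most −1 as down, and "rose" and "fell" are used only for such changes. Without a second library of any line there is no replicate error, so no change was tested and none has a p-value. All 3 comparisons use the same naive library, and its error is carried into each of them. The deposited values are not counts, so the read depth behind them is unknown. A gene was called expressed where any of its 4 libraries reached an rlog of 4.64, the log2 of 25, as 12701 genes did. Markers of lung epithelium were present in the cells, with 7 of 9 expressed and NKX2-1, the lineage factor of the lung, at an rlog of 8.67 to 9.18, although the surfactant gene SFTPB at 1.64 to 2.03 and NAPSA at 3.53 to 4.23 were not expressed by this limit. Of 8 markers of immune, endothelial, fibroblast and muscle cells, 0 were expressed, PTPRC was listed at 0 in every library, and the highest value of any was 2.20.

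The regions that carried the broadest change lay in FGFR2. To show what these regions are, 300 bases at the centre of 2 of its intronic peaks are printed here from the plus strand of hg38: the peak with the largest change and the longest peak. Neither window holds a match to the AP-1, TEAD, forkhead or ETS motif searched for, so no letters are in capitals.
FGFR2 peak with the largest change, chr10:121590437-121590736: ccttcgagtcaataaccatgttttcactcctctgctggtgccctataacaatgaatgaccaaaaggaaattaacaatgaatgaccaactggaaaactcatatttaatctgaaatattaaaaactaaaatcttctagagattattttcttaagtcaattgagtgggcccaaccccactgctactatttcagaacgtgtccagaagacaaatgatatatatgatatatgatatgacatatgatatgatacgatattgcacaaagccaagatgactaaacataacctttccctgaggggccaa
FGFR2 longest peak, chr10:121553893-121554192: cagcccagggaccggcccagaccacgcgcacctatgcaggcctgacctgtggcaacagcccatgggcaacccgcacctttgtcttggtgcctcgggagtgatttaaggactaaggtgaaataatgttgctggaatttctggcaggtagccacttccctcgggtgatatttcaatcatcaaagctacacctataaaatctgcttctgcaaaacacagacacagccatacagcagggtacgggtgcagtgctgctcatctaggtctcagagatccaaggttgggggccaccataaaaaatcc

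Of the 7 genes, FGF19 alone was called on RNA, and it was down in all 3 resistant lines. Over all 43869 genes, 0.481%, 0.609% and 0.219% were down in erCriz0, erAlec0 and erLor0, and 0.818%, 0.72% and 0.321% were up. Among expressed genes, the share up or down was 4.3%, 4.53% and 1.84%. Since the genes were selected on RNA values of these libraries, nothing is read from the count of FGF19. The 4 expressed genes were FGFR1, FGFR3, FGFR4 and FGF19. FGFR2, FGF2 and FGFBP1 stayed under the limit in every library.

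**Figure D1:**
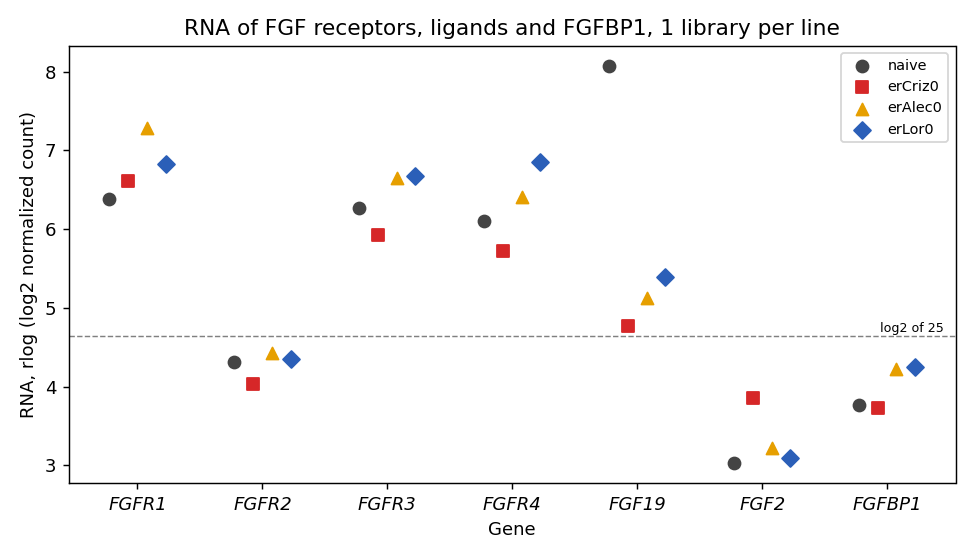
RNA level of the 7 genes on the rlog scale (log2 of the normalized count) in naive, erCriz0, erAlec0 and erLor0 cells, 1 point per library, with the limit for an expressed gene, log2 of 25, as a dashed line. FGF19 stood at 8.07 in naive cells and between 4.77 and 5.40 in the resistant lines, whereas the points of every other gene lay within 1.13 of each other.

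FGF19 (ENSG00000162344.4, chr11:69698238-69704022 of hg38, minus strand) had an RNA rlog of 8.07, 4.77, 5.12 and 5.40 in naive, erCriz0, erAlec0 and erLor0 cells. The naive library was therefore far above the other 3, which lay within 0.63 of each other and above the limit for an expressed gene. The RNA changed by −3.31, −2.96 and −2.68 and so fell in each resistant line, or 9.90-fold, 7.75-fold and 6.39-fold on the linear scale. In bulk libraries, fewer cells with the RNA and less RNA per cell cannot be told apart. Among 12701 expressed genes, 0, 7 and 10 had a lower change in the 3 lines. FGF19 was 1 of 4 genes in the table that fell by at least 2 in each line. The others were BPIFB2 and BPIFA2, secreted proteins of airway and gland epithelium that lie in 1 gene cluster, and XAGE1B, a cancer-testis antigen with near-identical copies, whose reads may be hard to assign. These 3 were also the expressed genes nearest to FGF19 by the Euclidean distance over the 3 changes, at 0.62 for XAGE1B, 1.19 for BPIFB2 and 1.29 for BPIFA2.

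H3K27ac at FGF19 did not follow the order of the RNA. The long peak in its intron at chr11:69700492-69701861 had an rlog of 8.06, 7.84, 6.87 and 6.83 in naive, erCriz0, erAlec0 and erLor0 cells. It thus fell by 1.19 in erAlec0 and 1.23 in erLor0, but its change was −0.22 in erCriz0, the line in which the RNA was lowest. The peak over an exon at chr11:69699461-69699697 had 5.36, 4.79, 4.02 and 4.40 in the same order, a fall of 1.34 in erAlec0 beside changes of −0.57 in erCriz0 and −0.95 in erLor0. In contrast, the peak whose centre lies 449 bp upstream of the start site was higher in every resistant line than in naive cells, with changes of 0.85, 0.71 and 0.85, none of which reached the limit. The fourth peak, 15.57 kb downstream of the start and shared with the gene LTO1, changed by −0.67, 0.38 and −0.55. The median over the 4 peaks was −0.39, −0.40 and −0.75, against −0.16, −0.22 and −0.09 for the other 1121 peaks within 5 Mb. Nearer to the gene the surroundings were also lower: the 125 other peaks within 1 Mb had medians of −0.46, −0.53 and −0.61, so the median of FGF19 differed from theirs by 0.06, 0.12 and −0.14.

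FGF19 lies on chromosome 11 in a stretch that is often amplified as a unit in carcinomas, and among its neighbours ANO1 also fell, in erCriz0 and erAlec0. CCND1, which encodes cyclin D1, had an rlog of 15.32, 15.16, 15.34 and 15.34 in naive, erCriz0, erAlec0 and erLor0 cells, and LTO1, between the 2 genes, changed by −0.09, 0.30 and 0.13. The ligands FGF4 and FGF3, on the other side, were at an rlog of −0.56 to −0.35 in every library. Of 16 expressed neighbours within 1 Mb, erCriz0 had 1 down and 0 up, erAlec0 1 down and 2 up, and erLor0 0 down and 1 up. ANO1, a calcium-activated chloride channel, had 9.38, 7.57, 8.32 and 9.72 and so fell by 1.81 in erCriz0 and 1.06 in erAlec0, with a change of 0.34 in erLor0. MYEOV had 9.38, 9.60, 11.20 and 10.44, and rose by 1.82 in erAlec0 and 1.06 in erLor0. The H3K27ac of these neighbours went its own way. Of 28 peaks paired with MYEOV, 15, 17 and 13 fell in the 3 lines and 0 rose, while 4 of 9 peaks paired with ANO1 rose in erAlec0 and 0 fell. Over the 110 peaks within 700 kb of FGF19, 30 fell and 0 rose in erCriz0, 25 fell and 7 rose in erAlec0, and 24 fell and 3 rose in erLor0. Over all peaks, 5.94%, 9.41% and 8.82% fell and 7%, 14.1% and 7.45% rose in the 3 lines.

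**Figure D2:**
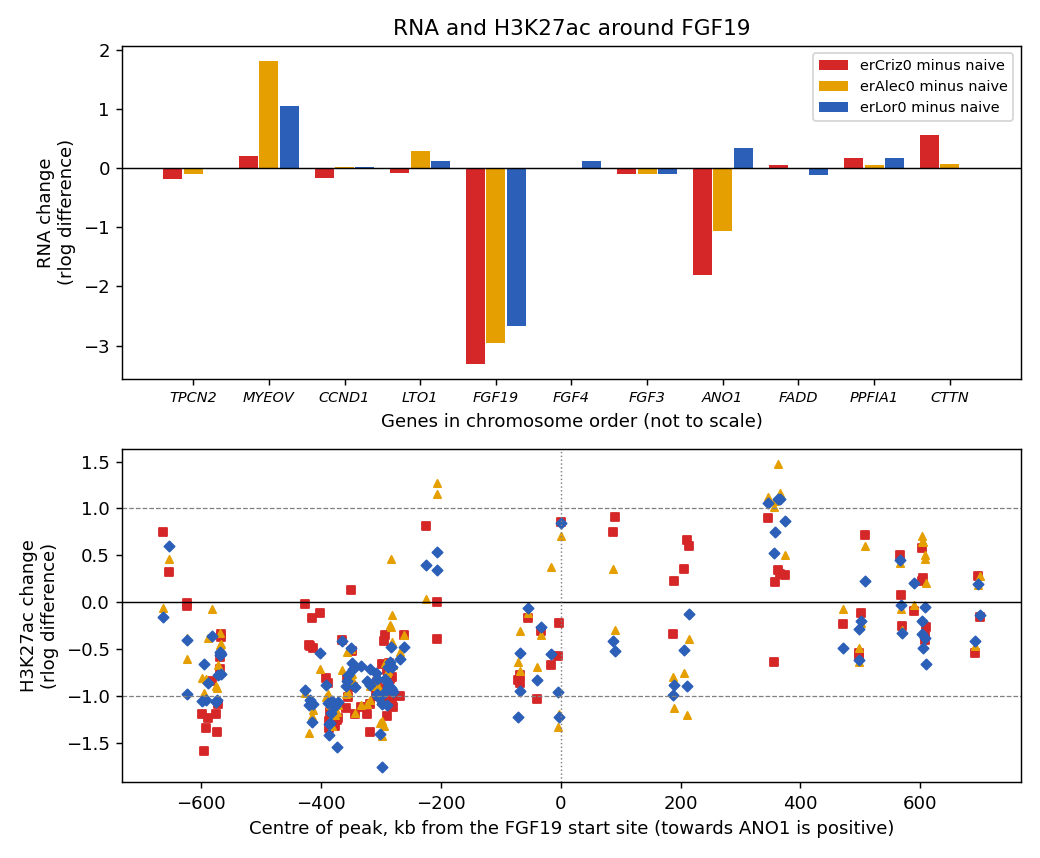
Upper panel, RNA change against naive cells (rlog difference, bars from 0) of FGF19 and its neighbours in chromosome order for erCriz0, erAlec0 and erLor0. Lower panel, H3K27ac change of each of the 110 peaks within 700 kb against distance from the FGF19 start site in kb, with dashed lines at 1 and −1, where FGF19 stands out on RNA (−3.31, −2.96 and −2.68) and the peaks on the CCND1 and MYEOV side lie mostly below 0.

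Of the list for the FGF19 hormone axis, FGFR4 alone was expressed, among 7 genes with values. KLB had an RNA rlog of −0.52, −0.52, −0.57 and −0.57 in naive, erCriz0, erAlec0 and erLor0 cells, and KL, which encodes the related coreceptor alpha-Klotho, 0.25, 0.16, 0.22 and 0.15. The bile acid receptor gene NR1H4, its target NR0B2 and the bile acid transporter subunit gene SLC51B were listed at 0 in all libraries, the gene of the partner subunit, SLC51A, was at −1.10 to −1.07, and FABP6, an ileal bile acid-binding protein, was at 1.87 to 2.28. CYP7A1, the rate-limiting enzyme of bile acid synthesis that FGF19 represses in liver, and SLC10A2 had no row in the table.

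FGFR4 (ENSG00000160867.15, chr5:177086905-177098144, plus strand), the main receptor of FGF19, had an RNA rlog of 6.11, 5.73, 6.41 and 6.86 in naive, erCriz0, erAlec0 and erLor0 cells. It was lowest in erCriz0 and highest in erLor0, and its changes of −0.38, 0.30 and 0.75 stayed within the limit. Its 1 paired peak, over the start of a coding transcript in the first part of the gene, had an H3K27ac rlog of 2.99, 3.48, 3.76 and 3.88, below the minimum of log2 of 15 (3.91) in every library, with changes of 0.50, 0.77 and 0.89. The expressed genes nearest to it over the 3 RNA changes were FAM20C, ERFE and TMEM150A, at distances of 0.10, 0.10 and 0.17.

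FGFR3 (ENSG00000068078.18, chr4:1793293-1808872, plus strand) had an RNA rlog of 6.27, 5.92, 6.65 and 6.67 in naive, erCriz0, erAlec0 and erLor0 cells. Like FGFR4 it was lowest in erCriz0 and above naive cells in the other lines, with changes of −0.35, 0.38 and 0.40. In erAlec0 and erLor0 its H3K27ac was above naive cells by more than its RNA was. Of its 9 peaks, 5 rose in erAlec0 and 2 in erLor0, and 0 passed the limit in erCriz0, where 14.1%, 7.45% and 7% of all peaks were up, with medians of 1.15, 0.76 and −0.15 against −0.21, 0.07 and 0.16 for 463 other peaks within 5 Mb. The longest, of 10306 bp, lies upstream with its centre 20.56 kb from the start site and had 9.28, 8.83, 10.54 and 10.04 in naive, erCriz0, erAlec0 and erLor0 cells. The naive library lay between erCriz0 and the other 2 lines here. Just downstream of the start, the peak at chr4:1793897-1794855 had 4.79, 4.87, 6.06 and 6.01, a rise of 1.27 in erAlec0 and of 1.23 in erLor0. The erAlec0 median dropped below the limit when the mean was taken in its place, at 0.93, or with only the peaks within 5 kb of the gene, at 0.81. SESN2, MARK4 and DVL3 were the expressed genes nearest to FGFR3 on RNA, at distances of 0.04 each.

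FGFR1 (ENSG00000077782.20, chr8:38400215-38468834, minus strand) had an RNA rlog of 6.38, 6.61, 7.29 and 6.82 in naive, erCriz0, erAlec0 and erLor0 cells. It was lowest in naive cells, and the change of 0.90 in erAlec0 came closest to the limit among the receptors. Of 12701 expressed genes, 399 had a higher change in erAlec0. Of its 9 peaks, 3 rose in erAlec0 and 2 in erLor0, where 14.1% and 7.45% of all peaks were up. The peaks that rose lie in its 5′ part, where 3 other peaks had changes of 0.02 to 0.93 in erAlec0 and erLor0. The 3 peaks beyond its 3′ end, which are shared with the histone methyltransferase gene NSD3 and with LETM2, had changes of −0.40 to 0.68 over the 3 lines. The peak over the exon at its start, centred 398 bp into the gene, had 3.09, 3.80, 4.76 and 4.89, and rose by 1.67 in erAlec0 and 1.80 in erLor0, beside 0.71 in erCriz0. An intronic peak 18.20 kb into the gene had 3.42, 3.62, 4.89 and 4.76, a rise of 1.47 in erAlec0 and 1.34 in erLor0. The longest peak, of 5108 bp at the 3′ side, had 9.23, 9.91, 9.67 and 9.77, with changes of 0.68, 0.45 and 0.54. Over all 9 peaks the medians were 0.20, 0.45 and 0.84, and with peaks paired with FGFR1 alone the erAlec0 median was 1.02. On RNA the nearest expressed genes were ENSG00000204282.4, LRRC8A and R3HDM4, at 0.05, 0.06 and 0.08.

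FGFR2 (ENSG00000066468.22, chr10:121478334-121598458, minus strand) had the most peaks of the 7 genes and, in erAlec0, the largest median change in H3K27ac. Its RNA rlog was 4.31, 4.04, 4.43 and 4.35 in naive, erCriz0, erAlec0 and erLor0 cells, below the limit for an expressed gene in each. The 4 libraries lay within 0.40 of each other, and the changes were −0.28, 0.12 and 0.04. On H3K27ac, all 24 of its peaks were higher in erAlec0 than in naive cells, by 0.96 to 3.03, and 23 of them rose. Many of these peaks were low: 17 of the 24 reached the minimum of log2 of 15 in any library. Most of these 17 were below it in naive cells. The peaks were merged over the samples, so a peak can be listed for its level in a resistant line alone. Over all peaks 14.1% were up in erAlec0. Among the 102015 peaks with a mean level in the range of the FGFR2 peaks, 1.13 to 6.88, the share was 15.2%. That range holds most of all peaks, so it matches level only loosely. In erLor0 8 of the 24 peaks rose, where 7.45% of all peaks were up, and in erCriz0 0 of 24 rose, where 7% were. For erCriz0, erAlec0 and erLor0, the 24 peaks had median changes of 0.03, 1.91 and 0.64. With only the 17 peaks that reached the minimum, the medians were 0.03, 2.10 and 0.92. A peak counted as reaching it through its highest library, and some did so in erAlec0 alone. This filter therefore favours peaks that are high in erAlec0, and its erAlec0 median is no check on the rise there. The other 520 peaks within 5 Mb had medians of 0.23, 0.17 and −0.08. Neighbouring peaks share a gene and are not independent measurements.

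**Figure D3:**
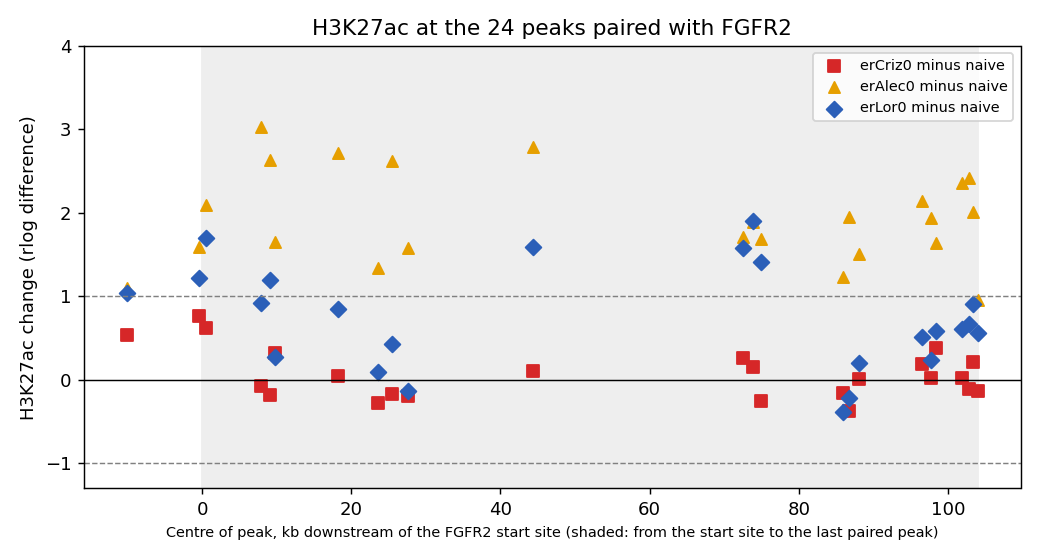
H3K27ac change against naive cells (rlog difference) of the 24 peaks paired with FGFR2 against the distance of each peak's centre from the start site in kb, for erCriz0, erAlec0 and erLor0. Dashed lines mark 1 and −1, and the erAlec0 points lie between 0.96 and 3.03 along the whole gene, the erCriz0 points between −0.37 and 0.76, and the erLor0 points above 1 at 8 peaks only.

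The intronic peak with the largest change, at chr10:121589901-121591271, whose centre is the first sequence printed above, had an H3K27ac rlog of 3.30, 3.23, 6.33 and 4.22 in naive, erCriz0, erAlec0 and erLor0 cells. Only erAlec0 passed the limit there, with 3.03 beside −0.08 and 0.92. The longest peak, at chr10:121552318-121555766 and 44.40 kb into the gene, had 5.76, 5.87, 8.55 and 7.36, a rise of 2.78 in erAlec0 and of 1.59 in erLor0.

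The resistant lines differed along the gene. At the start site, the peak at chr10:121597501-121598342 over an exon had 3.84, 4.46, 5.94 and 5.54, and rose by 2.10 in erAlec0 and 1.70 in erLor0, with 0.63 in erCriz0. This peak and those with centres 403 bp and 10.10 kb upstream rose in both erAlec0 and erLor0, but they are also within 20 kb of the gene ENSG00000223432. A group of 3 intronic peaks 72.55 to 74.96 kb into the gene rose by nearly the same amount in both lines, by 1.68, 1.89 and 1.71 in erAlec0 and by 1.41, 1.90 and 1.58 in erLor0. Farther on, 86.71 kb into the gene, the peak at chr10:121511305-121512164 had 3.23, 2.86, 5.18 and 3.01, a rise of 1.95 in erAlec0 next to a change of −0.21 in erLor0. The 3′ group of 7 peaks, from 96.53 kb to the last peak at 104.01 kb, had changes of 0.96 to 2.42 in erAlec0 and 0.24 to 0.91 in erLor0. The peak at 0.96, the last of the gene, was the 1 peak that did not reach the limit in erAlec0. Without the 3 peaks at and before the start site, a choice made with the data already seen, the medians were 0.01, 1.93 and 0.59.

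At the nearest peaks of other genes the median changes in erAlec0 were smaller. Only peaks within 20 kb of a gene had values, so any peaks farther from genes in the stretches beside FGFR2 were not seen. Where the rise along FGFR2 ends is therefore not known. The nearest 10 peaks with values on the 3′ side, 325 to 691 kb from the last FGFR2 peak, had a median change of 0.54 in erAlec0, and 2 of them rose. The nearest 10 with values on the 5′ side, 226 to 365 kb away near ATE1, NSMCE4A and TACC2, had a median of 0.91, and 5 of them rose, by up to 1.93. In erLor0 the medians on the 3′ and 5′ sides were 0.34 and 0.63, the second close to the 0.64 of FGFR2 itself. In erCriz0 they were 0.98, with 4 of 10 peaks up, and −0.28, with 0 up, beside 0.03 for FGFR2. On RNA, 0 of 5 expressed genes within 1 Mb passed the limit in any line, with changes of −0.54 to 0.94 in erAlec0. Among 2115 genes with at least 20 peaks, FGFR2 ranked 4 by the median peak change in erAlec0, 89 in erLor0 and 629 in erCriz0. The gene next in rank, CECR2, a chromatin remodelling factor, also rose on RNA in erAlec0, by 1.85 from 4.81 to 6.66, whereas CYB5A, next above, was at −0.08 in both libraries. Apart from CECR2, the genes ranked 1 to 10 had RNA changes of −0.09 to 0.12 in erAlec0, and most were listed at 0 in both libraries.

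**Figure D4:**
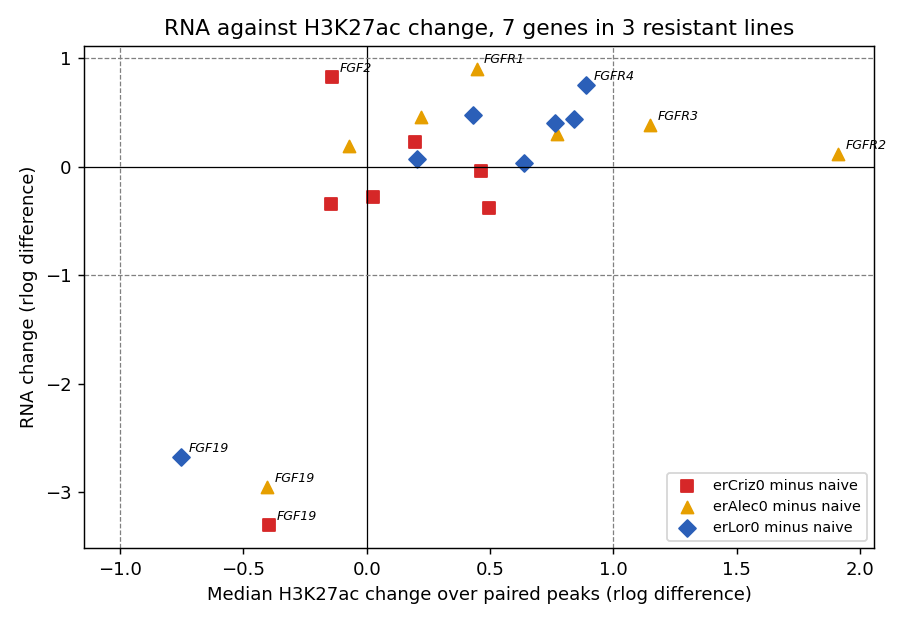
RNA change against the median H3K27ac change over paired peaks (both rlog differences from naive cells) for the 7 genes in erCriz0, erAlec0 and erLor0, 1 point per gene and line, with dashed lines at 1 and −1. FGFR2 in erAlec0 lies far right at 1.91 with an RNA change of 0.12, and FGF19 lies far below at RNA changes of −2.68 to −3.31 with median peak changes of −0.39 to −0.75.

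Some of what these regions hold in sequence was described without a test. In the 300-base windows at the centres of the 24 FGFR2 peaks, searched on both strands, the forkhead motif TGTTTAC was in 4 windows, or 16.7%, against 4.20% of the windows of all 126470 peaks. The AP-1 motif TGANTCA was in 0 of 24 against 9.68%, the TEAD motif GGAATG in 1 of 24 against 15.9%, and the ETS motif CCGGAA in 0 of 24 against 4.68%. The ETS and TEAD letters can overlap by the 4 bases GGAA. The median GC content of the FGFR2 windows was 47.2%, against 48% for all peaks.

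The promoters of 2 receptors lie at or beside peaks that rose in erAlec0 and erLor0, and are printed from RefSeq (GRCh38.p14) in the direction of transcription, with the GC box GGGCGG or its reverse complement in capitals. Of the 7 genes, 5 matched an entry, which spans 250 bases before to 50 after a start. FGFR1, which also has a peak at its start that rose in both lines, had no entry.
FGFR2 promoter, chr10:121598395-121598694: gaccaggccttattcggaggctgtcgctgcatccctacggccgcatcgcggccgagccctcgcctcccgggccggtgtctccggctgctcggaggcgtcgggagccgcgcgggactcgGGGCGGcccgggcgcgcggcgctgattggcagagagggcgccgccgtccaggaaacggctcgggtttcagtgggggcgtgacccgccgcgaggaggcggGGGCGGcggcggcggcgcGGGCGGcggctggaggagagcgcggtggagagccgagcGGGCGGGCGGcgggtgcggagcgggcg
FGFR3 promoter, chr4:1793043-1793342: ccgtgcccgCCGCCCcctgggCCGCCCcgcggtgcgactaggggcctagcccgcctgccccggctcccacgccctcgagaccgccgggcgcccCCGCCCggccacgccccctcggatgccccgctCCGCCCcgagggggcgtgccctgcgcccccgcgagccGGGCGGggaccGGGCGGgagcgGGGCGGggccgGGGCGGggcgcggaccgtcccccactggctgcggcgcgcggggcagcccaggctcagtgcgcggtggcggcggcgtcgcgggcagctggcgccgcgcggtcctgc
The FGFR2 entry, on the minus strand and 1 of 5 for the gene, overlaps a peak and holds 5 GC boxes, of which the last pair overlap, and the FGFR3 entry, on the plus strand, ends 57 bp before a peak and holds 8. GC boxes were in 45.0% of 35116 promoters of the same length. GC content was 79.3% for FGFR2 and 86.3% for FGFR3, against a median of 58.7% over all promoters, and 42.0% for FGFBP1, which held 0 GC boxes. The TATA box TATAAA, in 11.5% of all promoters, was in neither printed entry.

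FGF2 (ENSG00000138685.15, chr4:122826708-122898236, plus strand), a ligand of most FGF receptors that acts near the cell that makes it, had an RNA rlog of 3.03, 3.85, 3.22 and 3.10 in naive, erCriz0, erAlec0 and erLor0 cells. The erCriz0 library was the highest, by 0.83 over naive cells, and all 4 were below the limit for an expressed gene. Its 2 peaks lie about 14 and 15 kb upstream and had H3K27ac values of 0.07 to 1.16, far below the minimum for a peak.

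FGFBP1 (ENSG00000137440.5, chr4:15935577-15938740, minus strand), a secreted carrier that releases FGFs from heparan sulfate, had an RNA rlog of 3.77, 3.73, 4.23 and 4.25 in naive, erCriz0, erAlec0 and erLor0 cells. erAlec0 and erLor0 were higher than the other 2 libraries, by changes of 0.46 and 0.48, all below the limit for an expressed gene. Of its 5 peaks, 1 rose, in erLor0: the exonic peak at chr4:15935573-15936632 had 5.12, 5.72, 5.63 and 6.14. The medians over its peaks were 0.46, 0.22 and 0.43.

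Over the 54 peaks of the 7 genes together, erCriz0 had 0 up, erAlec0 31 (57.4%) and erLor0 13 (24.1%), where 7%, 14.1% and 7.45% of all peaks were up. In the same lines 0, 2 and 1 were down, where 5.94%, 9.41% and 8.82% of all peaks were. Without the 24 peaks of FGFR2, 8 of 30 were up in erAlec0 (26.7%) and 5 of 30 in erLor0 (16.7%), beside the same 14.1% and 7.45%.

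Levels were compared between genes only per length, as the rlog minus log2 of the kb of exon sequence in GENCODE 44, which counts every annotated exon and so is longest for FGFR1 and FGFR2. In naive cells FGF19 stood first at 7.21, ahead of FGFR3 at 3.99, FGFR4 at 3.84, FGFBP1 at 3.34, FGFR1 at 2.28, FGF2 at 0.26 and FGFR2 at 0.08. In erCriz0 the order was the same with FGF19 at 3.90, next to FGFR3 at 3.64. FGFR3 led in erAlec0 at 4.37, with FGF19 at 4.26, and FGFR4 led in erLor0 at 4.59, with FGF19 at 4.53. With 1 library per line, neighbours in these orders cannot be told apart by any spread.

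Beside the receptors, 7 other genes of the FGF pathway passed the limit in at least 1 line. The lists covered other ligands, coreceptors and binding proteins, heparan sulfate enzymes, receptor adaptors, and feedback and target genes of the FGF-ERK route. The list for the FGF19 hormone axis was counted with them. Together they held 73 further genes with values, of which 49 were expressed. Of the expressed genes, 3 rose and 1 fell in erCriz0, 2 rose and 1 fell in erAlec0, and 1 rose and 1 fell in erLor0. These are 8.16%, 6.12% and 4.08% of the expressed genes of the lists, against 4.3%, 4.53% and 1.84% of all expressed genes. The lists were chosen with earlier results of these data known, so nothing is read from the difference in shares. The median change of the 49 genes was 0.08, 0.10 and 0.10, against −0.02, 0.00 and 0.00 over all expressed genes.

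Among the ligands, 14 of 20 had values, 2 were expressed and 0 passed the limit. FGF13, an intracellular family member that does not act through FGF receptors, had an RNA rlog of 7.89, 8.80, 7.44 and 7.89 in naive, erCriz0, erAlec0 and erLor0 cells. FGF21, a hormone that also needs beta-Klotho, had 5.61, 5.15, 5.41 and 5.93. FGF9, a paracrine ligand, just missed the limit for an expressed gene at 3.70, 4.62, 3.61 and 4.33.

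Of the coreceptors and binding proteins 8 of 14 were expressed, and SDC2, a heparan sulfate proteoglycan of the cell surface, rose by 1.06 in erLor0, from 5.80 to 6.85, beside changes of 0.97 in erCriz0 and 0.85 in erAlec0. The heparan sulfate enzymes held 1 gene that was down in every line. SULF2, an extracellular sulfatase that trims 6-O-sulfate from heparan sulfate, had 7.25, 5.19, 5.01 and 5.28 in naive, erCriz0, erAlec0 and erLor0 cells, with changes of −2.06, −2.24 and −1.97, a fall in each line. The naive library was again the one that stood apart. SULF1, with the same activity, rose by 1.498 in erCriz0, from 6.80 to 8.30, with changes of 0.23 and 0.00 in the other lines. The other 8 expressed enzymes were within the limit.

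All 12 receptor adaptors and relays were expressed and 0 passed the limit, with changes of −0.76 to 0.76 over the 3 lines. The main FGF receptor adaptor, FRS2, had 9.15, 9.42, 9.37 and 9.38 in naive, erCriz0, erAlec0 and erLor0 cells. Among the 17 feedback and target genes, all expressed, 2 rose in erCriz0, 2 in erAlec0 and none in erLor0. Those of erCriz0 were SPRED3, a RAS-ERK inhibitor, by 1.87 from 7.81 to 9.69, and the ETS factor ETV1, by 1.73 from 8.91 to 10.64. Those of erAlec0 were the phosphatases of ERK DUSP5, by 1.45 from 10.69 to 12.13, and DUSP6, by 1.17 from 11.86 to 13.03. SPRY4, a feedback inhibitor of receptor kinases, stayed within the limit at 9.83, 9.71, 10.50 and 10.35.

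**Figure D5:**
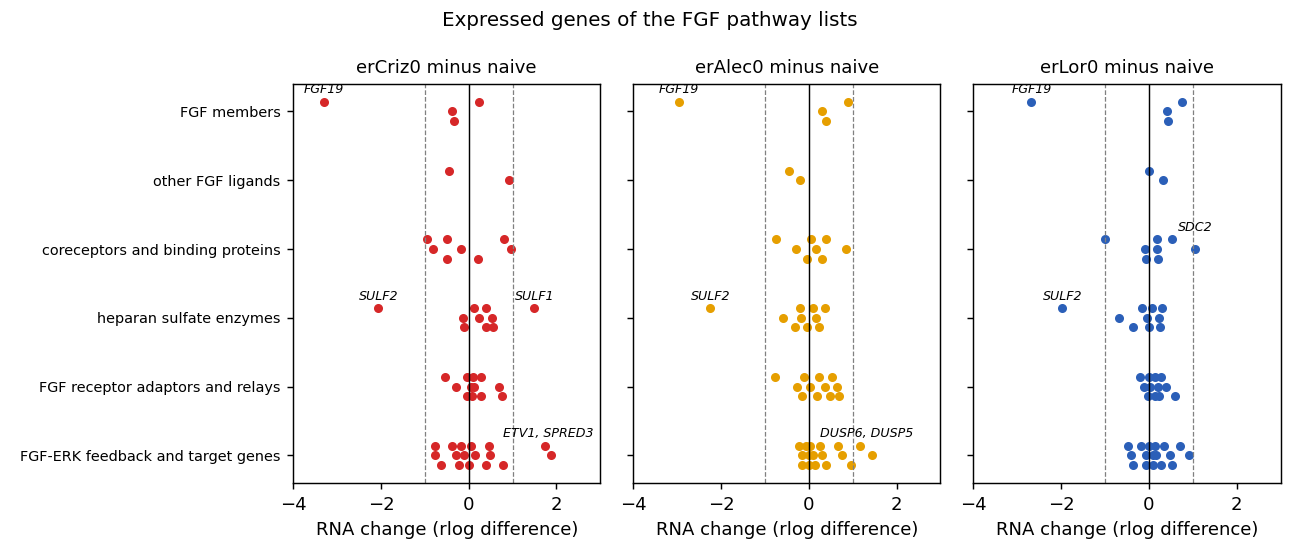
RNA change against naive cells (rlog difference) of the expressed genes of the 7-gene group and of the 5 pathway lists in erCriz0, erAlec0 and erLor0, 1 point per gene, with dashed lines at 1 and −1 and names for genes past them. SULF2 lies near −2 in each line (−2.06, −2.24 and −1.97), and most other points lie between the dashed lines.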

How the data were processed

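The authors deposited 1 table of pairs of a gene and an H3K27ac peak at most 20 kb apart, with gene and peak levels as log2 values that came from the rlog function of DESeq2 over 4 libraries. For RNA, MiSeq reads were mapped by the authors with HISAT2 (hg38), and HTSeq-count gave reads per gene. ChIP-seq reads were aligned to hg38 with BWA, duplicates and poorly mapped reads were removed, MACS2 peaks of 4 samples were merged, and reads were counted with featureCounts. Versions of these tools are not given in the sources used here. Deposited columns of a correlation over the libraries, its p-values and the row means were not used. No subtraction of input DNA is described for the peaks. The rlog draws features with few reads toward their mean and so understates their changes, and read depth cannot be recovered from it.

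Changes from naive cells were computed as differences of rlog values with Python 3.11.15, pandas 2.3.3 and numpy 2.4.6 (scipy 1.17.1 and matplotlib 3.10.9 were also loaded), and called at 1, the limit of the study's methods. The 7 genes and the lists were chosen with earlier results of these data known. The genes named are the 7 genes, list genes past the limit in at least 1 line or needed to show a low level, and the 3 expressed genes nearest to each expressed member. For each member the peaks planned were its longest, the one at the start site and those with the largest changes, not all of which are given. Other genes and peaks named, such as CECR2, CYB5A and further FGFR2 peaks, were picked after their values were seen. Positions came from the table and GENCODE 44, and coordinates were identical in both for all 34115 genes whose identifiers had equal versions. Promoters came from RefSeq. The counting of calls was tested on simulated data. Alternatives were other limits, centring, quantile normalization, filters on low peaks, other sets of paired peaks and other regional windows. The sequence and single values of 1 FGFR2 peak are not reported here.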

Additional observations from a re-analysis of the deposited data

Results flagged for a closer look

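RNA of FGFR3 and of FGFR4 was below naive cells in erCriz0 and above them in erAlec0 and erLor0, by at least 0.25 each way, so the 3 resistant lines moved in opposite directions. For FGFR3 the changes were −0.35, 0.38 and 0.40, and for FGFR4 they were −0.38, 0.30 and 0.75, in the same order of lines. The difference was not tested, since each line has 1 library, and no change reached the limit of 1.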

How the results depend on the processing

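No paired analysis was possible because each line has 1 library, and for the same reason leaving out a replicate was not possible. Of 108 alternative counts, 73 stayed within 1.5 times the value reported. Of 189 alternative single values, 176 kept their sign and their side of the limit. Values below the limit also had to shift by no more than the median absolute change of all expressed genes or all peaks in that line. Another 5 changed sign, none of them a value past the limit. These were the RNA change of FGFBP1 in erCriz0 after centring (−0.04 to 0.02) and, with other peaks within 1 Mb in place of 5 Mb, the differences from regional peaks of FGF19 in erCriz0 (−0.23 to 0.06) and erAlec0 (−0.19 to 0.12), FGF2 in erCriz0 (−0.16 to 0.01) and FGFBP1 in erAlec0 (0.39 to −0.05). The difference from regional peaks of FGF19 in erLor0 kept its sign and side with the 1 Mb window, but moved from −0.66 to −0.14 and is not among the 176. The limit moved the counts most. In the order erCriz0, erAlec0 and erLor0, a limit at a 1.5-fold difference gave 1, 1 and 1 of the 7 genes up on RNA, 11, 8 and 5 pathway genes up and 6, 3 and 3 down, and 2245, 2167 and 1109 of all genes and 47003, 62380 and 52892 of all peaks up or down. It gave 8 member peaks up and 1 down in erCriz0, and 28 up and 2 down in erLor0. A limit of 2 left 0, 0 and 0 pathway genes up and, in erLor0, 0 down. With it 10 member peaks were up and 0 down in erAlec0, 0 were up and 0 down in erLor0, 71, 43 and 23 of all genes and 588, 2936 and 878 of all peaks passed. Quantile normalization gave 2 pathway genes down in erCriz0 and 2 in erLor0. Centring and quantile normalization each gave 18 member peaks up in erLor0 in place of 13, and left 0 in erCriz0 and 31 in erAlec0. The erLor0 median of FGFR3 peaks was 1.10 with peaks within 5 kb, that of the FGFR4 peak 1.02 after quantile normalization, and the erAlec0 median of FGF19 −1.19 with peaks within 5 kb or paired with it alone. Quantile normalization covered expressed genes only, so it gave no RNA value for FGFR2, FGF2 and FGFBP1. The depth of the libraries is unknown, which limits the changes of FGFR2, FGF2 and FGFBP1 RNA most.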

Other observations

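DUSP6 RNA was higher in every resistant line than in naive cells, with changes of 0.79, 1.17 and 0.72 for erCriz0, erAlec0 and erLor0, while its 14 paired H3K27ac peaks had median changes of −1.01, −1.26 and −1.78, and 8, 10 and 10 of them fell, where 5.94%, 9.41% and 8.82% of all peaks did. ETV4, another ERK-induced ETS factor, had RNA changes of −0.64, 0.14 and 0.29 and median peak changes of −0.78, −1.04 and −0.83 over 10 peaks. FGF14, an intracellular FGF family member at an RNA rlog of 1.31 to 1.42, had 20 peaks, of which 14 fell in erAlec0 and 11 in erLor0, against 2 in erCriz0, beside the same shares of all peaks. These genes were picked after their values were seen.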
